A study of Mus musculus with 8 samples.

Results

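The transcripts of 10 transcription factors were examined, namely the SOX family members *Sox9*, *Sox10* and *Sox4*, the TWIST factors *Twist1* and *Twist2*, the SNAIL factors *Snai1* and *Snai2*, the zinc-finger and homeodomain repressors *Zeb1* and *Zeb2*, and the paired-related homeobox factor *Prrx1*. They were chosen by name, as factors known for the neural crest and for the transition of epithelial or glial cells to a mesenchymal state. Earlier results of these data were known when they were chosen. They are 10 of the 50600 genes in the count table. The cells were NF1-MET, a line from a mouse malignant peripheral nerve sheath tumor (MPNST) with amplified *Met*, and NF1-MET;sgP53 (the sgP53 line), made from it with CRISPR-Cas9 and a guide against *Trp53*. Both lines were exposed for 24 h to 100 nM capmatinib, a MET kinase inhibitor, or to its solvent DMSO (vehicle), and poly(A) RNA was sequenced. Each of the 4 groups had 2 libraries.

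All groups share the alleles of the tumor model, in which *Nf1* was lost and a MET transgene was switched on through an inducible Cre recombinase driven in the Schwann lineage, and the NF1-MET line is described as carrying a spontaneous *Cdkn2a* deletion. Counts were nevertheless assigned to *Cdkn2a* in every library (267 to 431), and which part of the gene is deleted was not analysed here. The labels give the NF1-MET libraries the genotype WT and the NF1-MET;sgP53 libraries the genotype Trp53 KO. Each genotype was 1 line, and the NF1-MET;sgP53 line was a puromycin-selected population after lentiviral transduction, so loss of p53 and other differences between the lines cannot be told apart. The short column names of the NF1-MET libraries contain the letters EV, and an empty vector control of the NF1-MET line is described in the study's methods. The labels call these libraries NF1-MET and do not say whether they came from that control. The cells were treated in duplicate wells that the labels call biological replicates, so the p-values measure the spread between these wells, which may be technical.

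The neural crest is an embryonic population that leaves the neural tube by turning off epithelial adhesion and becoming migratory, and it gives rise to Schwann cells, melanocytes and much of the skeleton of the face. SOX9 and SOX10 are high-mobility-group factors of the same subfamily, of which SOX9 directs cartilage formation and early crest and SOX10 is kept on in the Schwann cell lineage. SNAI1, SNAI2, ZEB1 and ZEB2 are zinc-finger repressors that bind E-box sequences and silence *Cdh1*, the gene of the epithelial cadherin. TWIST1 and TWIST2 are basic helix-loop-helix proteins that bind E-boxes as dimers with E proteins, and PRRX1 marks and maintains limb and connective tissue mesenchyme. MPNSTs arise from the Schwann lineage, and loss of Schwann cell genes together with mesenchymal gene expression is a known feature of these tumors.

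Promoter sequences, taken from RefSeq (GRCm38.p6) as 250 bases before to 50 bases after each start site, were matched to 6 of the 10 genes, and *Sox9*, *Sox10*, *Snai2* and *Zeb1* had no entry and were not searched. The 250 bases before the start site are shown for *Snai1*, the SNAIL factor with an entry, whose window holds the E-box that SNAIL and ZEB proteins recognize, and for the TWIST pair, which share a family but not a response to capmatinib. Capitals mark the match in *Snai1* (CACCTG) and in *Twist1* (ATTGTT, the reverse complement of AACAAT), and *Twist2* has no match to any motif searched.
Snai1, chr2:167537945-167538194, plus strand: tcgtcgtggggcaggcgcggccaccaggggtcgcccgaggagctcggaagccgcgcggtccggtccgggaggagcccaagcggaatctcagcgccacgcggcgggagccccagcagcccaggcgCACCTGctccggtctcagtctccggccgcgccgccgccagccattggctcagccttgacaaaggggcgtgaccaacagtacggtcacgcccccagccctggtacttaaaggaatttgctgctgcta
Twist1, chr12:33957421-33957670, plus strand: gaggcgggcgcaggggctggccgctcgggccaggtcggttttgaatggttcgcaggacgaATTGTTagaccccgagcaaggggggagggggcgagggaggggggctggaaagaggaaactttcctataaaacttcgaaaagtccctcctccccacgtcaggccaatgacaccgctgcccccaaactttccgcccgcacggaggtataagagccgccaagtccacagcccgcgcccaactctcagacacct
Twist2, chr1:91801211-91801460, plus strand: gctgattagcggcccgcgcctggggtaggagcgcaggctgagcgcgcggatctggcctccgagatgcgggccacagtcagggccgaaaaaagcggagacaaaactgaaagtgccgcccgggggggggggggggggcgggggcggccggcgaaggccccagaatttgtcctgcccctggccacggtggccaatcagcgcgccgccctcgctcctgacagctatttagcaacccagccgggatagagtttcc

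The motifs searched on both strands were the general E-box CANNTG, its SNAIL and ZEB form CACCTG, which is also counted among the CANNTG matches, and AACAAT, a core bound by SOX proteins. Of 32851 windows of this length, 72.31% held CANNTG, 20.21% held CACCTG and 10.72% held AACAAT. In the *Snai1* promoter the CACCTG began 126 bases before the start site and was its only CANNTG. The *Sox4* window had a single CANNTG match, with the letters CAGCTG, beginning 211 bases before the start site, and *Twist1* had the AACAAT match beginning 190 bases before it. *Twist2*, *Prrx1* and the 4 start sites of *Zeb2* had no match to these letters. A match describes these letters and is not a measured binding site.

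The libraries held 30116810 to 42781371 counts, and 14497 genes had at least 10 counts in at least 2 libraries. The noncoding RNA *Gm42418* took 1.11% to 13.1% of the counts of a library, and TMM factors, which scale libraries on the bulk of the genes, lay between 0.898 and 1.10. Levels are given as CPM, the count divided by the library size after this scaling and set to a common total, and between genes as RPKM, which also divides by exon length. *Trp53* was measured first as a check of the labels. It was at 182 and 193 CPM in NF1-MET vehicle libraries and at 97.5 and 100.1 CPM in NF1-MET;sgP53 vehicle libraries, and its target *Cdkn1a* fell from a mean of 90.1 to 28.3 CPM between these lines.

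The labelled tissue was checked against its markers. Several lineage markers of Schwann cells were at or near the floor, with at most 5 counts of *Cdh19* in any library, 0.0827 to 0.492 CPM of *S100b* and 0.220 to 0.777 CPM of *Erbb3*. Others on the wider Schwann cell list were expressed, with 23.1 to 118.7 CPM of *Pmp22* and 125 to 192 CPM of *Ncam1*, and the sum of that list was 302 to 555 CPM over the libraries. Of the mesenchymal markers, *Vim* and *Col1a1* were abundant, with group means of 4758 to 5692 CPM and 2448 to 15396 CPM. Group means of *Col1a2*, *Cdh2*, *Pdgfra* and *Pdgfrb* were at least 134 CPM. *Thy1* was low, with group means of 0.934 to 3.91 CPM. Of the epithelial markers, *Cdh1* had at most 4 counts, *Epcam* at most 7 and *Esrp1* none in any library. Of 10 blood and endothelial markers, 8 had under 10 counts in every library, and the summed level of the list was 1.95 to 2.48 CPM over the 8 libraries. In bulk RNA, fewer cells of a type and less RNA per cell cannot be told apart.

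Per length, *Prrx1* and *Sox4* were the highest of the factors in every group and *Sox10* the lowest. In NF1-MET vehicle cells the order was *Sox4* (54.9 and 54.2 RPKM), *Prrx1* (46.1 and 45.9), *Twist1* (27.1 and 28.4), *Sox9* (16.0 and 15.5), then *Zeb1* (14.9 and 14.1) and *Twist2* (14.6 and 14.2), whose values overlapped, *Snai1* (11.7 and 11.2), *Snai2* (10.3 and 9.43), and *Zeb2* (6.74 and 6.50). After capmatinib the order in the same line was *Prrx1* (55.2 and 56.1 RPKM), *Sox4* (45.8 and 47.3), *Snai2* (35.5 and 36.3), *Snai1* (28.8 and 28.5), *Twist1* (26.1 and 27.95), *Zeb1* (17.8 and 17.4), *Zeb2* (9.78 and 9.98), *Twist2* (6.22 and 6.41) and *Sox9* (3.88 and 3.95), and no neighbours overlapped. Among the 9 factors that passed the filter, *Snai2* thus moved from the eighth place to the third, and *Sox9* from the fourth place to the last. In NF1-MET;sgP53 vehicle cells *Prrx1* (39.9 and 41.6 RPKM) and *Sox4* (40.1 and 40.5) overlapped, and so did *Snai2* (11.5 and 12.6) with *Twist2* (12.5 and 12.8), *Sox9* (11.9 and 12.4) and *Snai1* (11.8 and 11.0). With capmatinib, NF1-MET;sgP53 cells had the same order as NF1-MET cells, from *Prrx1* (54.0 and 53.7 RPKM) to *Sox9* (4.54 and 4.38).

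**Figure D1:**
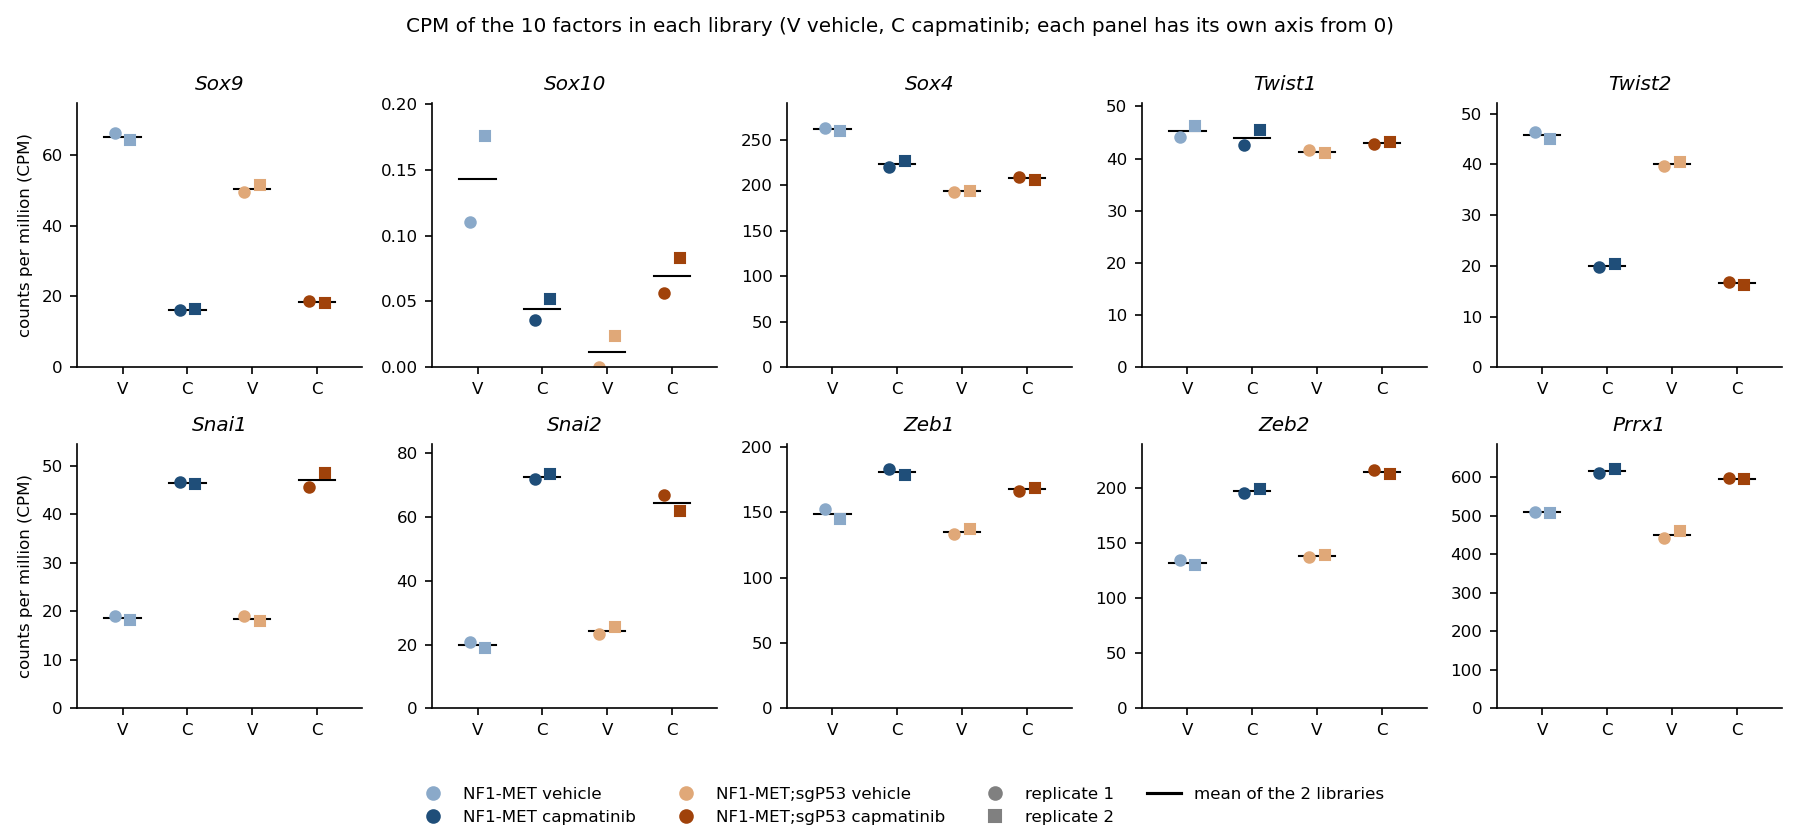
CPM (vertical axis, linear, from 0, with its own scale in each panel) of the 10 factors in the 8 libraries, with vehicle (V) and capmatinib (C) libraries of each line, replicate 1 as circles, replicate 2 as squares and a line at the mean of the 2 libraries. *Sox9* and *Twist2* drop with capmatinib in both lines, *Snai1*, *Snai2* and *Zeb2* rise in both, *Twist1* stays between 41.1 and 46.2 CPM, and *Sox10* stays below 0.18 CPM.

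Capmatinib against vehicle was compared first in NF1-MET cells, to ask how MET inhibition alters these factors where p53 is intact. *Sox9* fell 4.06-fold and *Twist2* fell 2.30-fold, while *Snai2* rose 3.60-fold and *Snai1* rose 2.47-fold. *Zeb2*, *Zeb1* and *Prrx1* rose by less, *Sox4* fell by less, and *Twist1* did not pass the test. By the quasi-likelihood F-test of edgeR, adjusted over all genes by the Benjamini-Hochberg method (threshold 0.05), which gives every adjusted p below, 5 of the 9 factors tested were higher and 3 lower. Of all genes tested, 35.5% were higher and 34.7% lower, or 70.2% in all, so a call alone sets these factors little apart from other genes. Changes of at least 2-fold were met by 2 factors that rose and 2 that fell, beside 11.5% and 5.35% of all genes. The median log2 fold change of the 9 factors was 0.26, beside 0.0020 over all genes.

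The same comparison in NF1-MET;sgP53 cells called 6 factors higher and 2 lower, beside 34.2% and 33.4% of all genes, or 67.6% in all. At least 2-fold changes were again met by 2 factors that rose (*Snai1*, *Snai2*) and 2 that fell (*Sox9*, *Twist2*), beside 10.4% and 5.02% of all genes. The median of the factors was 0.31 and that of all genes 0.0049. The comparisons within the lines have no library in common. Scaling by library totals in place of TMM shifted the median of all genes by -0.18 for NF1-MET and by -0.12 for the sgP53 line, and the 4 factors past 2-fold stayed called in the same direction in both lines under it.

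*Sox9* (chromosome 11, 112782224 to 112787760, mm10) was at 66.0 and 64.1 CPM in NF1-MET vehicle libraries and at 16.0 and 16.3 CPM under the inhibitor. The sgP53 line had it at 49.4 and 51.3 CPM in vehicle and at 18.8 and 18.1 CPM with capmatinib. The treated libraries lay far below the vehicle libraries in both lines, with no overlap. Its log2 fold change was -2.02 (SE 0.0498, adjusted p = 2.44e-26) in NF1-MET and -1.45 (SE 0.0506, adjusted p = 9.89e-17) in NF1-MET;sgP53. Only 1.68% of the genes tested had a lower log2 fold change in NF1-MET, and 2.67% did in the sgP53 line.

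*Sox10* (chromosome 15, 79154908 to 79165240) did not pass the filter on low counts. Its counts were 4 and 7 in NF1-MET vehicle, 1 and 2 in NF1-MET capmatinib, 0 and 1 in NF1-MET;sgP53 vehicle, and 2 and 3 in NF1-MET;sgP53 capmatinib libraries. A count of 0 allows up to 3 counts, so no fold change is given. Tested without the filter by edgeR's F-test, its adjusted p was 0.0667 to 0.838 over the 5 comparisons, so no difference was called. Its unadjusted p was 0.0110 for the lines in vehicle, 0.0380 for the interaction and 0.105 to 0.551 otherwise. The factor that defines the Schwann lineage was therefore present at no more than 0.176 CPM in any library.

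*Sox4* (chromosome 13, 28948919 to 28953713), a factor of the SOXC group found in many progenitor cells and tumors, was at 263 and 260.1 CPM in NF1-MET vehicle and at 219.8 and 226.6 CPM with capmatinib. It was at 192 and 194 CPM in NF1-MET;sgP53 vehicle and at 209 and 206 CPM with capmatinib. The lines thus moved in opposite directions, with a log2 fold change of -0.24 (SE 0.0245, adjusted p = 1.73e-10) in NF1-MET and 0.10 (SE 0.0308, adjusted p = 0.00523) in NF1-MET;sgP53. With library totals the NF1-MET;sgP53 value was -0.02 (adjusted p = 0.889, over all alternatives 0.000678 to 0.889), so the direction of that small rise rests on the scaling. *Sox4* shares 54.6% of its exon bases with *Gm26735* on the opposite strand, which had 58 to 104 counts in a library, and whether the counting used strand is not given in the sources used here.

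*Twist1* (chromosome 12, 33957671 to 33959829), which is required for cranial neural crest mesenchyme, was at 44.1 and 46.2 CPM in NF1-MET vehicle and at 42.5 and 45.5 CPM with capmatinib. In the sgP53 line it was at 41.6 and 41.1 CPM in vehicle and at 42.8 and 43.2 CPM with capmatinib. The NF1-MET groups overlapped, and the NF1-MET;sgP53 groups lay next to each other. The log2 fold change had a 95% interval of -0.14 to 0.04 in NF1-MET (adjusted p = 0.323) and of -0.03 to 0.15 in NF1-MET;sgP53 (adjusted p = 0.239). With library totals *Twist1* was at -0.24 in NF1-MET and past the threshold (adjusted p = 0.000731, over all alternatives 0.000731 to 0.993), a fit in which the all-gene median itself sat at -0.18.

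*Twist2* (chromosome 1, 91801461 to 91848028), a dermal and bone mesenchyme factor, was at 46.3 and 45.1 CPM in NF1-MET vehicle and at 19.7 and 20.4 CPM with capmatinib. In the sgP53 line it was at 39.6 and 40.5 CPM in vehicle and at 16.9 and 16.2 CPM with capmatinib. All 4 treated libraries lay below all 4 vehicle libraries. The log2 fold changes were -1.20 (SE 0.0517, adjusted p = 9.60e-20) in NF1-MET and -1.28 (SE 0.0548, adjusted p = 3.94e-15) in NF1-MET;sgP53. *Twist2* shares 46.5% of its exon bases with *Gm29100* on the opposite strand, which had 24 to 81 counts in a library.

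Within the TWIST pair, the RPKM of *Twist2* relative to *Twist1* was 0.539 and 0.500 in NF1-MET vehicle libraries and 0.238 and 0.229 with capmatinib. It was 0.489 and 0.506 in NF1-MET;sgP53 vehicle libraries and 0.202 and 0.193 with capmatinib. A ratio within a library does not depend on how the library is scaled. The ratio in treated libraries was below that of vehicle libraries in both lines, since *Twist2* fell while *Twist1* stayed between 41.1 and 46.2 CPM over all libraries.

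*Snai1* (chromosome 2, 167538195 to 167542814), whose promoter is printed above, was at 19.0 and 18.2 CPM in NF1-MET vehicle and at 46.6 and 46.3 CPM with capmatinib. In the sgP53 line it was at 19.1 and 17.9 CPM in vehicle and at 45.6 and 48.5 CPM with capmatinib. Vehicle libraries of both lines lay together and treated libraries of both lines lay together. The log2 fold changes were 1.30 (SE 0.0521, adjusted p = 1.33e-20) and 1.35 (SE 0.0539, adjusted p = 1.13e-15) in the respective lines.

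*Snai2* (chromosome 16, 14705852 to 14709385), which in many embryos is the SNAIL factor of the crest, was at 20.9 and 19.1 CPM in NF1-MET vehicle and at 71.8 and 73.3 CPM with capmatinib. In the sgP53 line it was at 23.2 and 25.4 CPM in vehicle and at 66.7 and 61.8 CPM with capmatinib. The untreated NF1-MET;sgP53 libraries were above the untreated NF1-MET libraries, and with capmatinib they were below them. The rise was 1.85 on the log2 scale (SE 0.0477, adjusted p = 8.98e-26) in NF1-MET and 1.40 (SE 0.0504, adjusted p = 1.85e-16) in NF1-MET;sgP53. In NF1-MET 95.1% of the genes tested had a lower log2 fold change than *Snai2*, and in NF1-MET;sgP53 93.4%.

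The RPKM of *Snai2* relative to *Snai1* was 0.885 and 0.838 in NF1-MET vehicle libraries and 1.23 and 1.27 with capmatinib, without overlap. In NF1-MET;sgP53 it was 0.973 and 1.14 in vehicle and 1.17 and 1.02 with capmatinib, and these groups overlapped. The SNAIL factor with the higher level per length was therefore *Snai1* in NF1-MET vehicle and *Snai2* in NF1-MET capmatinib libraries.

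*Zeb1* (chromosome 18, 5591860 to 5775467) was at 153 and 145 CPM in NF1-MET vehicle and at 183 and 179 CPM with capmatinib. In the sgP53 line it was at 133 and 137 CPM in vehicle and at 167 and 169 CPM with capmatinib. Treated libraries were above vehicle libraries in both lines, by 0.26 (SE 0.0291, adjusted p = 1.30e-09) and 0.31 (SE 0.0325, adjusted p = 1.97e-08) on the log2 scale. With library totals these values were 0.08 (adjusted p = 0.206) and 0.19 (adjusted p = 0.127) and did not pass, the highest adjusted p over the alternatives in each line.

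*Zeb2* (chromosome 2, 44983632 to 45117395), a ZEB factor that also takes part in Schwann cell differentiation, was at 134 and 130 CPM in NF1-MET vehicle and at 195 and 199 CPM with capmatinib. In the sgP53 line it was at 137 and 139 CPM in vehicle and at 216 and 213 CPM with capmatinib. Every treated library was above every vehicle library, with log2 fold changes of 0.56 (SE 0.0281, adjusted p = 5.22e-18) and 0.63 (SE 0.0313, adjusted p = 4.79e-14). The RPKM of *Zeb2* relative to *Zeb1* went from 0.453 and 0.461 to 0.548 and 0.574 in NF1-MET cells and from 0.529 and 0.522 to 0.667 and 0.650 in NF1-MET;sgP53, so *Zeb1* remained the higher of the pair per length.

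*Prrx1* (chromosome 1, 163245119 to 163313710) had the most counts of the factors. It was at 510 and 508 CPM in NF1-MET vehicle and at 611 and 621 CPM with capmatinib, and at 442 and 461 CPM in NF1-MET;sgP53 vehicle and at 597 and 594 CPM with capmatinib. The treated libraries of both lines lay above the vehicle libraries, by 0.26 (SE 0.0215, adjusted p = 2.20e-12) in NF1-MET and 0.40 (SE 0.0278, adjusted p = 1.83e-11) in NF1-MET;sgP53. With library totals the NF1-MET value was 0.07 and not past the threshold (adjusted p = 0.249, over all alternatives 1.21e-26 to 0.249).

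**Figure D2:**
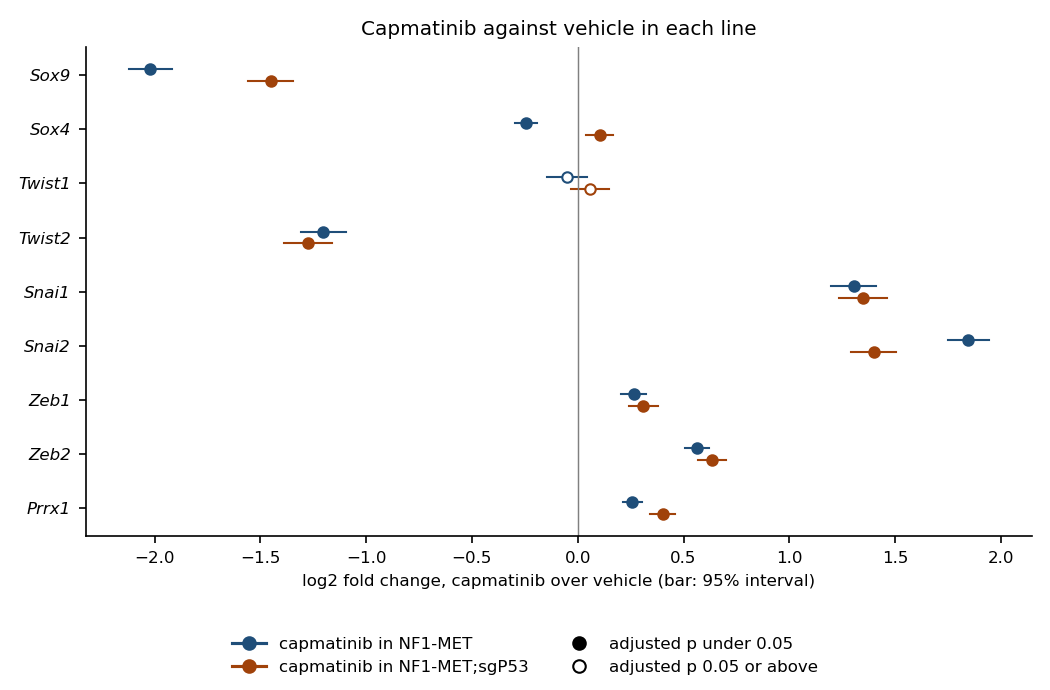
Log2 fold change of capmatinib over vehicle (horizontal axis) for the 9 factors tested, in NF1-MET (blue) and NF1-MET;sgP53 (orange), with 95% intervals as bars and open circles where the adjusted p was 0.05 or above. *Sox9* and *Twist2* lie far left in both lines and *Snai1* and *Snai2* far right, *Sox4* lies on opposite sides of 0 in the lines (the NF1-MET;sgP53 value crosses to -0.02 with library totals), and only the open circles of *Twist1* were not called.

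**Figure D3:**
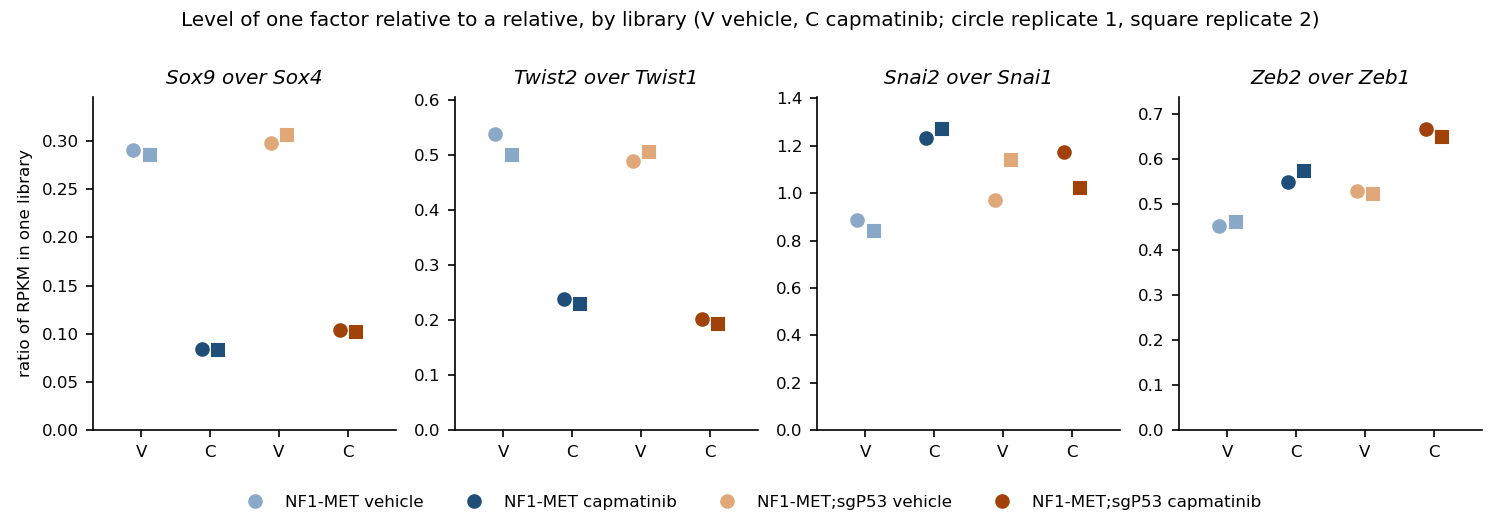
RPKM of a factor divided by the RPKM of a family member in the same library (vertical axis, linear, from 0) for 4 pairs, in vehicle (V) and capmatinib (C) libraries of NF1-MET (blue) and NF1-MET;sgP53 (orange). The *Twist2* ratio drops from 0.489 to 0.539 in vehicle libraries to 0.193 to 0.238 in treated libraries, the *Sox9* ratio drops from at least 0.286 to at most 0.104, and the *Snai2* ratio rises without overlap in NF1-MET only.

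The lines were then compared in vehicle, to ask whether loss of p53 alters the factors before MET is inhibited. The differences were small. *Sox4* was 1.37-fold and *Sox9* 1.31-fold lower in NF1-MET;sgP53, *Twist2*, *Prrx1*, *Zeb1* and *Twist1* were lower by less, and *Snai2* was 1.20-fold higher. Of the 9 factors, 1 was higher and 6 were lower, beside 10.9% and 12.3% of all genes, or 23.2% in all. No factor reached 2-fold. The median was -0.16, beside 0.0024 over all genes.

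In log2 units the differences in vehicle were -0.46 (SE 0.0263, adjusted p = 7.05e-11) for *Sox4*, -0.39 (SE 0.0372, adjusted p = 1.23e-07) for *Sox9* and 0.27 (SE 0.0654, adjusted p = 0.00475) for *Snai2*. For *Twist2* it was -0.21 (adjusted p = 0.000931), for *Prrx1* -0.19 (adjusted p = 7.86e-06), for *Zeb1* -0.16 (adjusted p = 0.000885) and for *Twist1* -0.15 (adjusted p = 0.0147). *Snai1* and *Zeb2* were not called, with 95% intervals of -0.16 to 0.11 and -0.02 to 0.11. The call of *Twist1* was lost without NF1-MET vehicle replicate 2 (-0.10), NF1-MET;sgP53 vehicle replicate 1 (-0.14) or replicate 2 (-0.12), and that of *Zeb1* without NF1-MET vehicle replicate 1 (-0.10). With library totals 3 factors remained called, 1 higher and 2 lower.

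The lines were also compared under capmatinib. *Twist2* was 1.21-fold lower in NF1-MET;sgP53, *Snai2* 1.13-fold, *Zeb1* 1.08-fold and *Sox4* 1.08-fold lower, and *Zeb2* was 1.09-fold higher. These 5 calls, 1 higher and 4 lower, stand beside 5.94% and 6.34% of all genes, or 12.3% in all. The median of the factors was -0.05 and that of all genes -0.0010.

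The log2 differences under capmatinib were -0.28 (SE 0.0631, adjusted p = 0.00591) for *Twist2*, -0.18 (SE 0.0385, adjusted p = 0.00469) for *Snai2* and 0.12 (SE 0.0289, adjusted p = 0.00857) for *Zeb2*. *Zeb1* was at -0.11 (adjusted p = 0.0260) and *Sox4* at -0.10 (adjusted p = 0.0236), while *Sox9*, at 0.19 with a 95% interval of 0.05 to 0.32, was not called (adjusted p = 0.0709). The calls of this comparison were the least stable, since 2 to 4 remained when any of its libraries was left out, 1 remained with DESeq2's Wald test and none with library totals (2 at an unadjusted p under 0.05), under which the median of all genes was shifted by 0.11. Without NF1-MET capmatinib replicate 1, *Zeb1* (-0.09) and *Zeb2* (0.11) were not called, without its replicate 2, *Sox4* (-0.08), *Snai2* (-0.16) and *Zeb1* (-0.13), without NF1-MET;sgP53 capmatinib replicate 1, *Zeb1* (-0.10), and without its replicate 2, *Sox4* (-0.08), *Snai2* (-0.11) and *Zeb1* (-0.10).

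The interaction of line and treatment tests whether the response to capmatinib itself differed between the lines. Positive values mean a higher log2 fold change in NF1-MET;sgP53. *Sox9* fell less in NF1-MET;sgP53 (0.55, SE 0.0707, adjusted p = 6.18e-06), *Snai2* rose less (-0.46, SE 0.0747, adjusted p = 0.000122), *Sox4* fell in NF1-MET and not in NF1-MET;sgP53 (0.33, SE 0.0384, adjusted p = 1.45e-06), and *Prrx1* rose slightly more (0.13, SE 0.0355, adjusted p = 0.0226). With library totals *Sox4* was negative in both lines, and its interaction was still called (0.41, adjusted p = 0.0104). These calls were 3 higher and 1 lower, beside 3.85% and 5.86% of all genes, or 9.71% in all. The direction that was commoner among all genes turned with the scaling, from 558 higher and 849 lower by TMM to 875 and 618 with *Gm42418* and 4 other RNAs omitted and to 192 and 123 with library totals. The median was 0.06 for the factors and -0.03 for all genes.

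The group means behind these values were as follows. The *Sox9* means were 65.0 and 50.4 CPM in vehicle and 16.2 and 18.4 CPM with capmatinib, and those of *Sox4* were 261.6 and 193 CPM in vehicle and 223 and 208 CPM with capmatinib. The *Snai2* means were 19.98 and 24.3 CPM in vehicle and 72.5 and 64.2 CPM with capmatinib. The other 5 factors did not pass the interaction test, with 95% intervals of -0.04 to 0.22 for *Twist1*, -0.24 to 0.06 for *Twist2*, -0.13 to 0.18 for *Snai1*, -0.06 to 0.12 for *Zeb1* and -0.03 to 0.14 for *Zeb2*. With library totals *Snai2* (adjusted p = 0.0625) and *Prrx1* (adjusted p = 0.516) were not called, each the highest over its alternatives. *Prrx1* was also lost without NF1-MET vehicle replicate 1 (0.12) or replicate 2 (0.13), NF1-MET capmatinib replicate 1 (0.11), NF1-MET;sgP53 vehicle replicate 1 (0.10) or NF1-MET;sgP53 capmatinib replicate 1 (0.12).

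**Figure D4:**
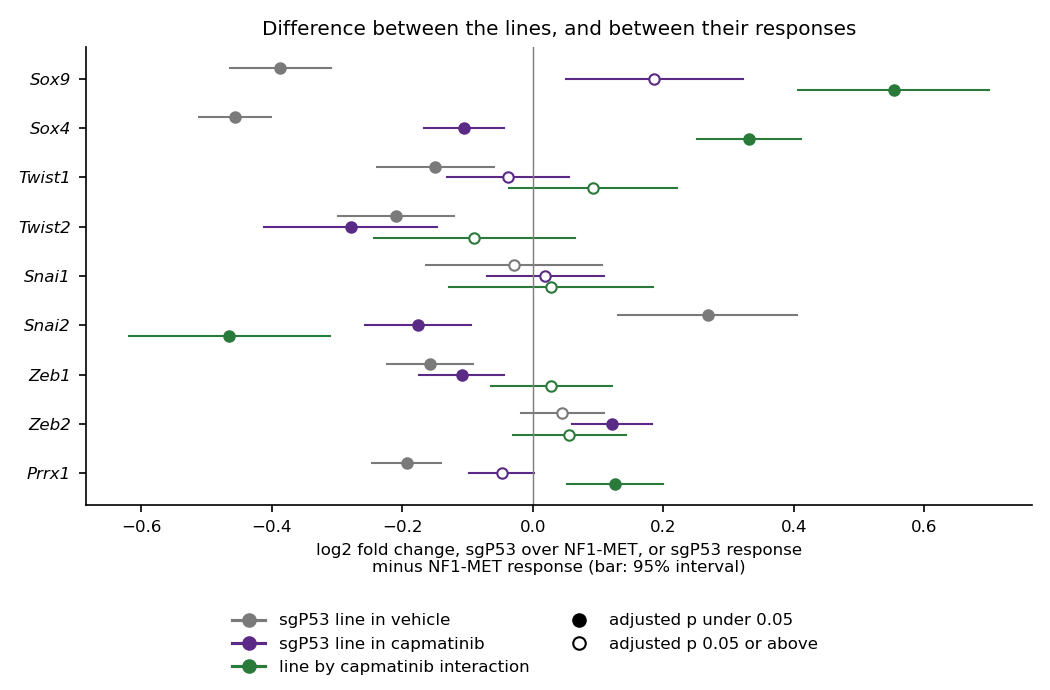
Log2 fold change of NF1-MET;sgP53 over NF1-MET in vehicle (grey) and in capmatinib (purple), and the difference of their responses to capmatinib (green, interaction), for the 9 factors tested, with 95% intervals as bars and open circles where the adjusted p was 0.05 or above. The interaction is right of 0 for *Sox9* (0.55) and *Sox4* (0.33) and left of 0 for *Snai2* (-0.46), and the purple points, under capmatinib, all lie within 0.28 of 0, where library totals move *Sox4*, *Twist1*, *Zeb1* and *Prrx1* across 0.

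The genes on the lists that follow are counted as called in NF1-MET, where 35.5% of all genes were higher with capmatinib and 34.7% lower, and in NF1-MET;sgP53, where 34.2% were higher and 33.4% lower. Relatives of the factors gave 7 testable genes of 15. *Sox2*, an early neural and Schwann precursor factor, was at 154 and 151 CPM in NF1-MET vehicle and 27.1 and 25.6 CPM with capmatinib, and at 101 and 98.5 CPM in NF1-MET;sgP53 vehicle and 22.5 and 26.2 CPM with capmatinib. Like *Sox9*, it fell in both lines (-2.55 and -2.03, adjusted p = 5.65e-33 and 9.75e-20), was lower in NF1-MET;sgP53 in vehicle (-0.63, adjusted p = 3.46e-12), and fell less in that line (interaction 0.51, adjusted p = 7.53e-06). *Prrx2*, the closest relative of *Prrx1*, rose from a mean of 42.1 to 96.1 CPM in NF1-MET and from 37.3 to 74.7 CPM in NF1-MET;sgP53 (1.18 and 1.00, adjusted p = 1.73e-21 and 4.93e-16).

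*Sox13*, a SOXD factor, fell from 17.9 to 7.40 CPM and from 10.5 to 5.27 CPM (-1.28 and -0.99, adjusted p = 3.76e-15 and 4.85e-09). *Sox12* was at 18.6 to 20.8 CPM in NF1-MET libraries and was not called in either line (adjusted p = 0.0685 and 0.0710). The remaining 3, *Sox5*, *Sox6* and the tendon factor *Scx*, had group means under 8 CPM. In all, 3 of the 7 relatives rose and 3 fell in NF1-MET and 2 rose and 2 fell in NF1-MET;sgP53, with medians of -0.13 and -0.14. With so few genes these counts cannot be set apart from the shares over all genes. *Snai3*, *Sox8*, *Sox11*, *Sox17*, *Sox18*, *Hand1*, *Hand2* and *Tcf15* had under 10 counts in every library.

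Of 22 other neural crest regulators, 9 could be tested, and 4 rose and 3 fell with capmatinib in NF1-MET (median -0.01), and 3 rose and 4 fell in NF1-MET;sgP53 (median -0.09), also too few to set apart from all genes. *Pax3*, a crest and Schwann precursor factor, rose from a mean of 18.1 to 32.8 CPM in NF1-MET (0.84, adjusted p = 1.55e-14) and from 18.3 to 34.8 CPM in NF1-MET;sgP53 (0.93, adjusted p = 6.07e-12). *Msx1*, a factor of the neural plate border, fell from 10.4 to 5.39 CPM in NF1-MET (-0.98, adjusted p = 6.43e-10). *Tfap2a* rose from 62.9 to 72.8 CPM (0.19, adjusted p = 2.48e-05) and *Ets1* fell from 143 to 127 CPM (-0.18, adjusted p = 3.08e-06) in NF1-MET. *Foxd3*, *Ngfr* and *Tfap2b*, which mark early crest, had at most 5 counts in any library.

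The Schwann cell list, which holds known SOX10 targets, had 14 testable genes of 22. In NF1-MET 7 of the 14 rose and 3 fell with capmatinib (median 0.44), beside 35.5% and 34.7% of all genes. In NF1-MET;sgP53 9 rose and 3 fell (median 0.62), beside 34.2% and 33.4%. These counts rest in part on genes near the floor, with at most 0.634 CPM in any library. They were *Mbp* and *L1cam* in NF1-MET, and *Mbp*, *Fabp7* and *S100b* in NF1-MET;sgP53. *Mbp* had 7 or 8 counts in vehicle and 15 to 23 in treated libraries, so it passed the filter only through the libraries where it was higher. In NF1-MET *Egr2*, the myelination factor KROX20, rose from 16.1 to 73.9 CPM (2.18, adjusted p = 4.94e-27), and *Pmp22*, a myelin protein, from 23.1 to 103.5 CPM (2.14, adjusted p = 1.82e-29). In the same line *Prx*, the periaxin gene, rose from 13.0 to 32.2 CPM (1.28, adjusted p = 1.63e-18), whereas *Gap43*, a growth cone protein of immature Schwann cells, fell from 18.4 to 2.84 CPM (-2.72, adjusted p = 1.73e-21). Sums of the list were 336 to 342 CPM in NF1-MET vehicle and 537 to 547 CPM in NF1-MET capmatinib libraries, while *Sox10* had at most 7 counts. These sums were made up mostly of *Ncam1* (means of 129 and 189 CPM), *Cryab*, *Pmp22* and *Egr2*. Between the lines in vehicle 3 of the 14 were higher and 2 lower in NF1-MET;sgP53 (median -0.07), beside 10.9% and 12.3% of all genes. *Cryab*, a small heat shock protein, was at 117.2 and 116.5 CPM in NF1-MET vehicle and at 117.1 and 115.3 CPM with capmatinib. Its NF1-MET;sgP53 libraries were at 73.9 and 71.0 CPM in vehicle, below those of NF1-MET (-0.71, adjusted p = 1.89e-12). With capmatinib they were at 116.5 and 120.7 CPM, with an interaction of 0.72 (adjusted p = 4.17e-11). *Egr2* and *Prx* rose less in NF1-MET;sgP53, with interactions of -0.36 (adjusted p = 0.00135) and -0.35 (adjusted p = 0.0102). In the interaction 1 of the 14 was higher and 2 lower, beside 3.85% and 5.86% of all genes.

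Cartilage genes, several of which are SOX9 targets in chondrocytes, had 6 testable members of 14. None fell with capmatinib, while 5 of the 6 rose in NF1-MET (median 1.24), beside 35.5% of all genes, and 3 in NF1-MET;sgP53 (median 0.83), beside 34.2%. With 6 genes these counts cannot be set apart from the shares over all genes, and 3 of those that rose in NF1-MET were near the floor there, *Col9a3* with 4 to 16 counts, *Comp* with 2 to 17 and *Col11a2* with 22 to 42. *Col11a1*, a fibrillar collagen, rose from a mean of 18.6 to 399 CPM in NF1-MET (4.41, adjusted p = 1.86e-40) and from 34.0 to 453 CPM in NF1-MET;sgP53 (3.74, adjusted p = 1.95e-26), with an interaction of -0.69 (adjusted p = 1.76e-10). *Runx2*, a bone factor, rose from 67.4 to 79.9 CPM in NF1-MET (0.23, adjusted p = 4.18e-07). The chondrocyte markers *Col2a1*, with at most 9 counts, and *Acan*, with none, stayed at or near the floor in all libraries.

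The epithelial genes that SNAIL, ZEB and TWIST factors are known to silence were mostly at or near the floor in all groups. Of 25 genes, 19 had under 10 counts in every library, *Cdh1*, *Epcam*, *Ocln*, *Krt18* and *Esrp1* among them. Of the 6 tested, 3 rose and 2 fell in each line (medians 0.30 and 0.42), too few to be read against the 35.5% and 34.7% of all genes in NF1-MET or the 34.2% and 33.4% in NF1-MET;sgP53. *Jup*, the plakoglobin gene, rose from 26.3 to 40.1 CPM in NF1-MET (0.60, adjusted p = 3.83e-12), and *Tjp1*, a junction protein also made by mesenchymal cells, was at 151 to 157 CPM in all libraries and was not called in either line. *Krt8*, a keratin, was at 0.441 and 0.577 CPM in NF1-MET vehicle and at 0 and 0.0260 CPM with capmatinib.

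Mesenchymal genes were all testable, and 17 of 22 rose with capmatinib in each line, beside 35.5% and 34.2% of all genes, while 5 fell in NF1-MET cells and 4 in sgP53 cells (medians 1.31 and 1.12, beside 0.0020 and 0.0049 over all genes). *Postn*, the matrix protein periostin, rose from a mean of 7.36 to 229.9 CPM (4.95, adjusted p = 4.64e-39), *Tagln* from 35.2 to 783 CPM (4.46, adjusted p = 7.10e-42), *Acta2*, smooth muscle actin, from 412 to 7522 CPM (4.17, adjusted p = 1.28e-47) and the collagen-crosslinking enzyme *Lox* from 80.6 to 1383 CPM (4.08, adjusted p = 3.95e-43) in NF1-MET. The marker *Cdh2*, the cadherin gained in classical mesenchymal transition, went the other way. It fell from 285 to 140.0 CPM in NF1-MET (-1.04, adjusted p = 2.89e-26) and from 217 to 134 CPM in NF1-MET;sgP53 (-0.69, adjusted p = 9.15e-15), and *Vim* fell by 0.21 and 0.12 on the log2 scale (adjusted p = 2.83e-15 and 8.65e-06).

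Between the lines in vehicle, 13 of the 22 mesenchymal genes were higher in NF1-MET;sgP53 and 5 lower (median 0.13), beside 10.9% and 12.3% of all genes, led by *Tagln* (1.83, adjusted p = 1.91e-17) and *Acta2* (1.09, adjusted p = 1.91e-17). In the interaction 3 were higher and 10 lower (median -0.11), beside 3.85% and 5.86% of all genes, with *Tagln* at -1.57 (adjusted p = 7.76e-19). *Cdh2* had an interaction of 0.33 (adjusted p = 2.17e-06).

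Partners and regulators of the factors were all expressed, and 8 of 26 rose and 15 fell with capmatinib in NF1-MET (median -0.16), and 7 rose and 14 fell in NF1-MET;sgP53 (median -0.12). The genes that rose are near the 35.5% and 34.2% of all genes that rose in these lines, and those that fell stand beside 34.7% and 33.4%. The E proteins, with which TWIST factors pair, were high. *Tcf4* fell from a mean of 423 to 336 CPM in NF1-MET (-0.35, adjusted p = 6.87e-15) and from 367 to 319.5 CPM in the sgP53 line (-0.20, adjusted p = 2.32e-06). *Tcf12* and *Tcf3* were lower with capmatinib in the sgP53 line too (-0.10 and -0.40). The ID proteins, which sequester E proteins, were divided. In NF1-MET *Id2* rose from 14.4 to 35.6 CPM (1.29) and *Id3* from 95.6 to 188 CPM (0.96), and both also rose in the sgP53 line. There *Id2* rose less (interaction -0.41, adjusted p = 0.00841) and *Id3* rose more (interaction 0.40, adjusted p = 1.10e-06). *Id1* fell from 32.7 to 27.7 CPM (-0.25, adjusted p = 0.000135) and *Id4* from 5.33 to 2.93 CPM (-0.85, adjusted p = 6.46e-06) in NF1-MET. Both were already lower in the sgP53 line in vehicle (-0.69 and -1.42), where their changes with capmatinib were -0.01 and -0.20 on the log2 scale and not called, and their interactions were not called either (adjusted p = 0.134 and 0.141).

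Among the regulators, *Tgfb1*, the ligand that induces SNAIL and ZEB factors in many cells, fell from 95.7 to 50.4 CPM in NF1-MET (-0.94, adjusted p = 1.33e-21) and from 63.1 to 43.4 CPM in NF1-MET;sgP53 (-0.54, adjusted p = 7.30e-10), with an interaction of 0.38 (adjusted p = 7.33e-05). *Lats2*, a kinase that can stabilize SNAI1 protein, rose from 61.6 to 155 CPM (1.32, adjusted p = 8.72e-27) and from 69.8 to 166 CPM (1.25, adjusted p = 8.13e-18). *Fbxl14*, a ubiquitin ligase that acts on SNAIL and TWIST proteins, fell in both lines. It went from 49.5 to 33.4 CPM in NF1-MET (-0.58, adjusted p = 6.74e-13) and from 52.3 to 34.5 CPM in NF1-MET;sgP53 (-0.60, adjusted p = 3.54e-11). Protein levels of the factors were not analysed here.

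**Figure D5:**
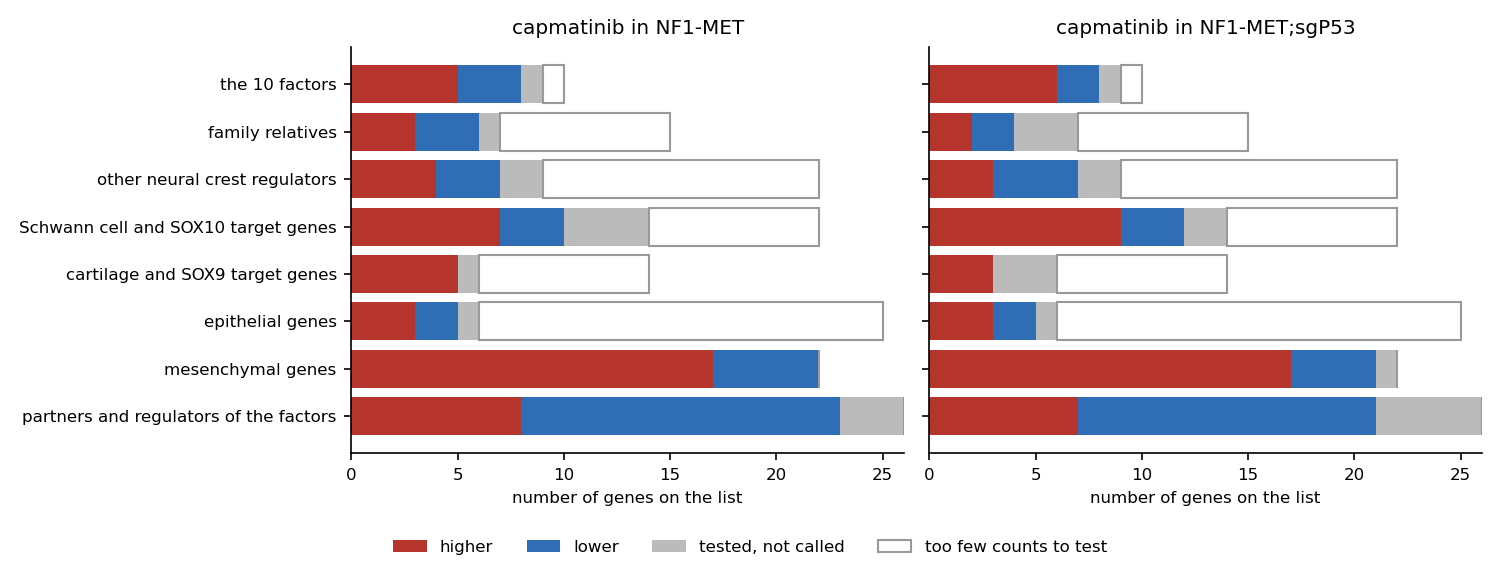
Number of genes on each list (horizontal axis) that were higher with capmatinib (red), lower (blue), tested but not called (grey) or had too few counts to test (white), in NF1-MET (left) and NF1-MET;sgP53 (right). The mesenchymal list is mostly red in both lines (17 of 22 genes), the epithelial list is mostly white (19 of 25 genes), and the 10 factors hold 8 called genes in each line.

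The genes most like each factor over the 8 libraries were described by Pearson's r of log2 CPM among the 8658 genes whose mean was 10 CPM or more. The 8 points share the treatment, the lines and the scaling of each library. For *Sox9* the nearest were *Xrcc5* (r = 0.999), *Ano8* and *Col4a3bp*, for *Twist2* *Dusp5* (r = 0.999), *Bcl6b* and *Chn1*, for *Snai1* *Kctd12* (r = 0.999), *Trafd1* and *Ctif*, for *Snai2* *Cdc42bpa* (r = 0.999), *Pcdh18* and *Luzp1*, and for *Zeb2* *Il6st* (r = 0.999), *Rora* and *Fam193a*. Between 1708 and 1869 genes had r above 0.95 to each of these 5 factors, so a high r here was common. *Sox4* had only 12 such genes, led by *Slc22a4* (r = 0.981), *Itga4* and *Glg1*, and *Twist1* had 1, *Nr1h2* (r = 0.955).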

How the data were processed

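Poly(A) RNA was sequenced from 2 lines, NF1-MET and its derivative NF1-MET;sgP53, after 24 h of vehicle or capmatinib (100 nM). The 4 groups of 2 libraries follow the sample titles. The authors trimmed the reads (Trim Galore 0.4.2), mapped them to mm10 with STAR 2.5.2b, and deposited raw read counts per gene, neither normalized nor filtered, for 50600 genes. Whether counting used strand is not given in the sources used here.

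From these counts, a gene was kept (14497 in all) where 2 or more of the 8 libraries reached 10 counts, and was tested in a comparison only if it was not at 0 in all but 1 of that comparison's libraries or in all of them. TMM factors and dispersions were estimated within each comparison, and genes were tested with edgeR 4.0.16 (R 4.3.3), by quasi-likelihood F-tests at an adjusted p of 0.05 (Benjamini-Hochberg, over every gene in the comparison). The interaction used all 8 libraries. Standard errors came from the log2 fold change and F, and 95% intervals from the t distribution on the total degrees of freedom. The biological coefficient of variation was 2.34% to 4.28%. The median squared difference between replicates was 1.54 to 1.78 times that of sampling noise alone. CPM used TMM factors over the 8 libraries, and RPKM the union exon length of GENCODE M21, in which 50376 identifiers were found. The test was checked on simulated counts with known changes.

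The factors and the gene lists were chosen with earlier results of these data known, so list counts are descriptions. From each list, up to 4 called genes with the largest change and at least 10 CPM and up to 2 others with the highest CPM could be named in each comparison, of which a selection is printed, with all relatives that passed the filter, *Trp53*, *Cdkn1a* and cell type markers. *Tcf3*, *Foxd3*, *Ngfr*, *Tfap2b*, *Ocln*, *Comp*, *Id4*, *Fabp7*, *L1cam* and the genes named for having too few counts lie outside this rule and were chosen after their values were seen. The alternatives were DESeq2 1.42.0 size factors and Wald test, library totals, omission of *Gm42418* and 4 other RNAs without poly(A) tails, other filters, edgeR's bias-adjusted test, a replicate block, all 8 libraries in a single model, and each library left out, where the lone library left in a group was assumed to vary like the other groups.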

Additional observations from a re-analysis of the deposited data

Results flagged for a closer look

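The response to capmatinib differed between the lines for 4 of the 9 factors tested, by the interaction term of edgeR's quasi-likelihood fit over the 8 libraries, beside 9.71% of all genes. *Sox9* fell by less in NF1-MET;sgP53, with a difference of 0.55 on the log2 scale (SE 0.0707, adjusted p = 6.18e-06). *Sox4* fell in NF1-MET and not in NF1-MET;sgP53, where it rose by TMM and not by library totals, with a difference of 0.33 (SE 0.0384, adjusted p = 1.45e-06). *Snai2* rose by less in NF1-MET;sgP53, with a difference of -0.46 (SE 0.0747, adjusted p = 0.000122), which did not pass with library totals (-0.39, adjusted p = 0.0625). *Prrx1* rose slightly more in NF1-MET;sgP53, with a difference of 0.13 (SE 0.0355, adjusted p = 0.0226), with adjusted p of 0.00187 to 0.516 over the alternatives. With library totals the calls of *Sox9* and *Sox4* were kept and those of *Snai2* and *Prrx1* were lost. The NF1-MET;sgP53 capmatinib replicate 2 library held 1.11% of its counts in *Gm42418*, beside 10.0% in replicate 1. With *Gm42418* and 4 other RNAs omitted, the interactions of *Sox9* (0.59), *Sox4* (0.37), *Snai2* (-0.43) and *Prrx1* (0.16) were still called.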

How the results depend on the processing

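In both comparisons of capmatinib with vehicle, the falls of *Sox9* and *Twist2* and the rises of *Snai1*, *Snai2* and *Zeb2* kept their direction and their call in every alternative run. Library totals in place of TMM changed calls of the factors. With them, 3 factors and 2023 genes were called between the lines in vehicle, 0 factors and 666 genes under capmatinib (2 factors at an unadjusted p under 0.05), and 2 factors and 315 genes in the interaction. *Sox4* (-0.020) and *Twist1* (-0.065) then changed sign for capmatinib in NF1-MET;sgP53, *Snai1* (0.029) for the lines in vehicle, and *Sox4* (0.011), *Twist1* (0.082), *Zeb1* (0.0067) and *Prrx1* (0.069) for the lines under capmatinib. The genes called higher and lower were 5140 and 5029 by TMM against 3508 and 6381 by library totals for capmatinib in NF1-MET, 4963 and 4841 against 3260 and 4933 in NF1-MET;sgP53, 1580 and 1775 against 1280 and 743 in vehicle, 860 and 918 against 537 and 129 under capmatinib, and 558 and 849 against 192 and 123 in the interaction, where omitting *Gm42418* and the 4 other RNAs gave 875 and 618. DESeq2's Wald test called 1933 genes in vehicle, 1 factor and 870 genes under capmatinib, and 894 genes in the interaction. Without the filter on low counts 1070 genes were called between the lines under capmatinib. The cause of these changes was not tested.

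With single libraries left out, 2 to 4 factors and 1079 to 1332 genes were called between the lines under capmatinib. These fits also drew on the other groups, unlike the main fit. The fit of all 8 libraries in a single model called 6 factors and 1884 genes there. Values near 0 crossed it. *Twist1* lay between -0.089 and 0.0093 for capmatinib in NF1-MET and between -0.082 and 0.016 for the lines under capmatinib, *Snai1* between -0.054 and 0.037 for the lines in vehicle, between -0.012 and 0.061 under capmatinib and between -0.020 and 0.072 in the interaction, and *Zeb1* between -0.0087 and 0.066 in the interaction. With all 8 libraries in a single model, *Sox9* was called between the lines under capmatinib (0.19, adjusted p = 0.0337).

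The labels number the replicates 1 and 2 in every group and state no shared day or batch. Deviations of same-numbered libraries correlated at -0.0522 to 0.107 across groups, so the numbers are not taken to pair the libraries. With the replicate number as a block, 8, 8, 7, 5 and 4 factors were called in the comparisons in the order of the report, and 10141, 9866, 3994, 1777 and 1524 genes. The call of no factor changed. Depth does not limit the 9 factors tested, which had at least 444 counts in every library, and limits *Sox10*, with 0 to 7.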
